A study of Homo sapiens with 6 samples.

Results

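The proteasome genes of MCF10DCIS.com cells were compared between cells silenced for WDR5 and control cells. MCF10DCIS.com is a human breast cancer cell line, and WDR5 is a core subunit of the complexes that methylate histone H3 at lysine 4. Members were the rows of the count table whose symbol starts with PSMA to PSMG followed by a number. The interferon-inducible core subunits PSMB8 and PSMB9, and 5 antisense RNAs, were left out of the 54 rows found. That left 47 of 26334 genes. PSMC3IP matched by its letters alone: it encodes a partner of PSMC3 that works in meiotic recombination and is no proteasome subunit, so it was kept apart. The other 46 genes were 8 of the alpha rings and 9 of the beta rings of the core, 6 ATPases and 11 non-ATPase subunits of the cap, 5 activators or inhibitors and 7 assembly chaperones.

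The 6 libraries were 3 of shLuc cells and 3 of shWDR5 cells, all of poly-A mRNA. ShLuc cells carried a vector with an shRNA against luciferase, which the cells do not have, and shWDR5 cells carried the same vector with an shRNA against WDR5. In both, the U6 promoter drove the shRNA, the vector also encoded TagRFP and puromycin resistance, and cells were selected with puromycin at 3 µg/ml. The study's methods describe silencing with a pool of WDR5 shRNAs beside a single control, so the effects of single shRNAs, and of off-targets, cannot be told apart. The labels do not say whether libraries of a group came from separate cultures, so p-values measure the spread between these libraries, which may be technical.

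The proteasome is the cell's main machine for degrading proteins tagged with ubiquitin. Its core is a barrel of stacked rings: the outer alpha rings gate the entry and the inner beta rings hold the cutting sites. A cap sits on the barrel, where non-ATPase subunits bind the tagged protein and remove its ubiquitin, and a ring of ATPases unfolds it and feeds it in. Since each subunit is present in the particle in a fixed number, transcription of the subunit genes is known to be raised together, by the factor NFE2L1, when proteasome activity falls short.

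Libraries held 38218108 to 57640167 counts. WDR5, on chromosome 9 at 137001210 to 137025094 (hg19, as are all gene positions given unless another build is named), stood at 16.5, 15.2 and 16.1 RPKM (reads scaled by exon length and library size) in shLuc and at 7.34, 7.65 and 6.52 RPKM in shWDR5. It fell by 1.15 on the log2 scale (SE 0.07, edgeR adjusted p = 8.67e-07), in the direction of the labels. Of the 8 epithelial markers checked, all were detected, and their summed level was 2670 to 2890 RPKM in shLuc and 4490 to 5120 RPKM in shWDR5. Of these 8, the 6 basal markers rose, while CDH1 and EPCAM, which are not particular to basal cells, fell. The part of this shift in the results below was not tested. Luminal markers summed to 18.7 to 22.0 RPKM in shLuc and 14.4 to 16.3 RPKM in shWDR5, with PGR at or near 0. Fibroblast markers summed to 3.65 to 4.0 and to 2.51 to 3.01 RPKM, and blood and endothelial markers to 3.14 to 3.49 and to 2.51 to 2.69 RPKM. COL3A1, DCN, PTPRC and CD3E were at or near 0.

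WDR5 silencing moved proteasome genes little and in both directions. Of the 44 proteasome genes that passed the filter on low counts, 7 rose and 14 fell in shWDR5 cells at an adjusted p under 0.05 (edgeR quasi-likelihood test, Benjamini-Hochberg adjustment over all 16117 genes tested). That is 47.7% of them, against 56.5% of all genes tested. Rises made up 15.9% of proteasome genes against 26.6% of all genes, and falls 31.8% against 29.9%. The share that fell was thus near the background. In bulk RNA, fewer cells of a type and less RNA per cell cannot be told apart. The median log2 fold change was -0.05, beside -0.01 over all genes tested, and the median size of the change was 0.13, beside 0.31. All genes tested were not matched to the proteasome genes for expression level, here or in the shares below.

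The study counted a gene as changed only with a log2 fold change of at least 0.6. It also asked for a false discovery rate under 0.05 and a level above 0.5 RPKM. None of the 44 proteasome genes reached that fold change with edgeR. Of all genes tested, 22.9% did at an adjusted p under 0.05, without the RPKM floor. The count was also 0 with DESeq2. In edgeR, 22 of the 44 had an unadjusted p under 0.05, beside 9846 of all 16117 genes tested. Fold changes ran from -0.33 for PSMG2 to 0.46 for PSME3 on the log2 scale. In 26 of the 44 (59.1%) the RPKM of the groups did not overlap, against 62.3% of all genes tested. The shWDR5 libraries lay below in 17 and above in 9, while 32.4% of all genes lay below and 29.9% above. Calls for 14 of the 21 genes, 5 higher and 9 lower, held under other scalings, filters and tests, the replicate block and each library left out (14 settings). How many calls held among all genes called was not counted, for these settings or for those below. The count of falls was 9 with DESeq2's test and with upper-quartile factors, and also 9 when shLuc replicate 1, shLuc replicate 3 or shWDR5 replicate 3 was left out. The 5 falls lost in each of these were PSMA1, PSMC1, PSMC2, PSMD6 and PSMD14, whose adjusted p values (edgeR) lay between 0.0237 and 0.0457. All 5 were at most 0.17 in size on the log2 scale.

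**Figure D1:**
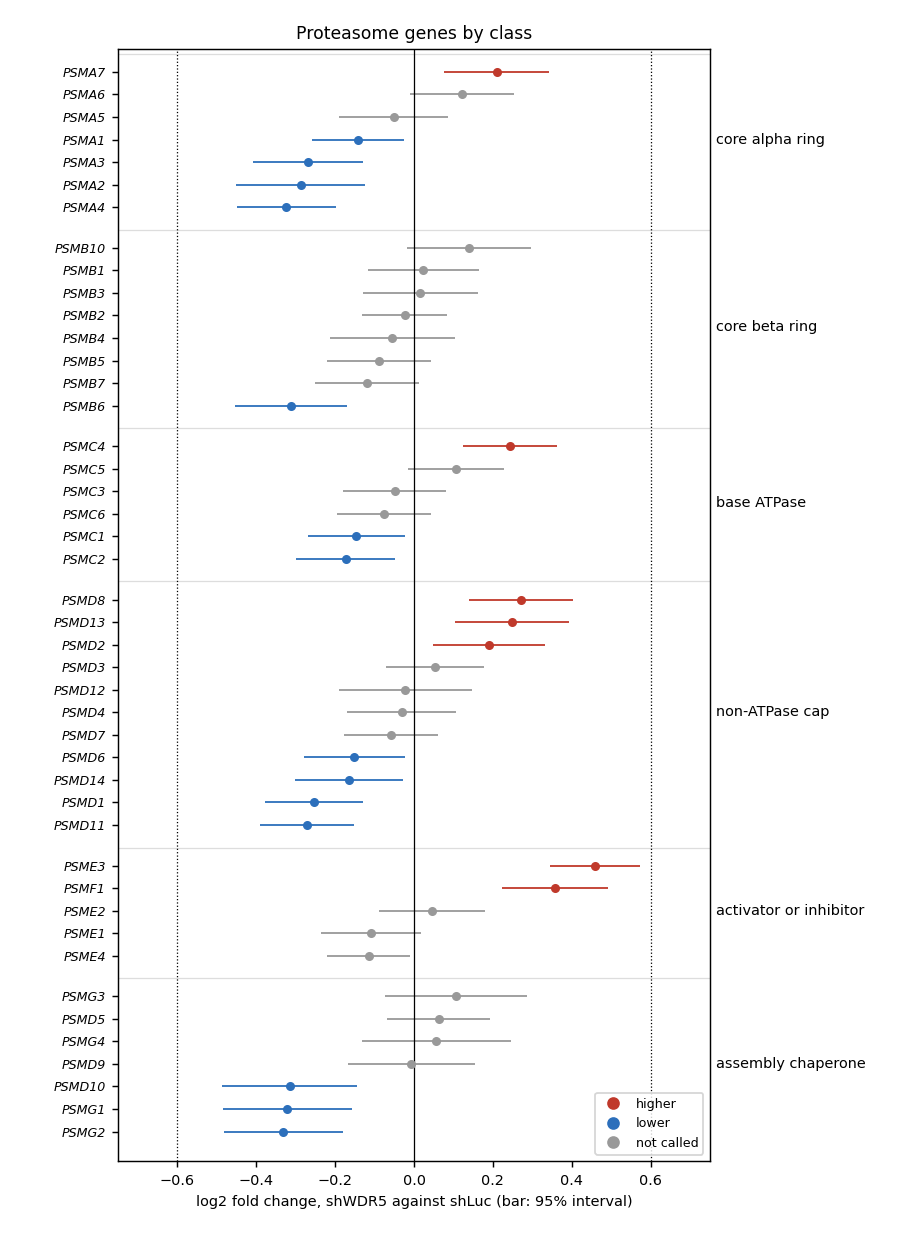
Log2 fold change of the 44 tested proteasome genes between shWDR5 and shLuc (x axis) by class; points are estimates, bars 95% intervals and dotted lines mark a change of 0.6. Rises (7, red) and falls (14, blue) lie on both sides of 0 in the alpha ring, the ATPases and the non-ATPase cap, and no estimate passes the dotted lines.

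The DNA before the starts of 4 genes is shown, since they were among the largest changes in each direction. Among called genes with a single start listed, PSME3 and PSMD8 rose most and PSMG1 and PSMD10 fell most. Each sequence is the 250 bases before the start, 5′ to 3′ on the gene's strand, from RefSeq (GRCh38.p14). Capitals mark matches to 4 motifs searched on both strands, whose matches may overlap: CCAAT (the NF-Y box), TGACNNNGC (the core of the antioxidant response element, which NFE2L1 and NFE2L2 can bind), CACGTG (the E-box) and the palindrome of nuclear respiratory factor 1.
PSME3, chr17:42833147-42833396, plus strand: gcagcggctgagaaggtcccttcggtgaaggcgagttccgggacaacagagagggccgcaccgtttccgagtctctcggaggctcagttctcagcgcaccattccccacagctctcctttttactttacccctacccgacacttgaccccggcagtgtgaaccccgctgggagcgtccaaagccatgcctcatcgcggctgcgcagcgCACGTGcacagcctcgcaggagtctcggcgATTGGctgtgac
PSMD8, chr19:38374321-38374570, plus strand: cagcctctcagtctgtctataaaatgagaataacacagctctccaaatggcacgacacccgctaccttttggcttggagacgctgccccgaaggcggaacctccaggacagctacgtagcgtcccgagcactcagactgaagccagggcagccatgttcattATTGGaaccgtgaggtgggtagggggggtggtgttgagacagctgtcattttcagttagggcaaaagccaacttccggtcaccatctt
PSMG1, chr21:39183452-39183701, minus strand: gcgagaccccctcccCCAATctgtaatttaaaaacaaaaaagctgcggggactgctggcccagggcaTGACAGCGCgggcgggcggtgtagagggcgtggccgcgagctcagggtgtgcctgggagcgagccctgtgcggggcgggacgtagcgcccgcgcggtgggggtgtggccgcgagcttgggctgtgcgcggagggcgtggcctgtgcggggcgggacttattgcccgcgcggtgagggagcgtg
PSMD10, chrX:108091543-108091792, minus strand: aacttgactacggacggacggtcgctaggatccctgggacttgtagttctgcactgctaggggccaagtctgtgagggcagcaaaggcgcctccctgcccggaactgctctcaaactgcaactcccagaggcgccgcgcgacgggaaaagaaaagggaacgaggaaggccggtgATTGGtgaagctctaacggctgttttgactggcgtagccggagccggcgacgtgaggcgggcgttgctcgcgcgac
All 4 windows held a CCAAT box, on the reverse strand (ATTGG) in PSME3, PSMD8 and PSMD10 and on the forward strand in PSMG1. PSME3 also held an E-box 42 bases before its start, and PSMG1 an antioxidant response core 183 bases before its start.

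Promoter windows were listed for 40 of the 46 genes and not for PSMA7, PSMB1, PSMB6, PSMB7, PSMD4 and PSMG3. A gene was counted once if any of its windows held the motif. CCAAT was found in 18 of the 40 (45.0%), beside 40.9% of the 11381 tested genes with a window and 32.0% of all 35116 windows. It was in 2 of 6 genes that rose, 8 of 13 that fell and 7 of 19 that were not called. The antioxidant response core was in 12 of the 40 (30.0%), beside 15.6% of tested genes and 10.9% of all windows. It was in 0 of 6 genes that rose, in 3 of 13 that fell (PSMA4, PSMG1 and PSMG2) and in 9 of 19 not called. E-boxes were in PSMB3, PSMD9 and PSME3 (7.5% against 10.7% of tested genes and 6.34% of windows), and the palindrome was in PSMA4 alone (2.5% against 2.07% and 1.03%). These matches are a description of the letters, not of binding.

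In the alpha rings, 4 of 7 tested genes fell and 1 rose, with a median log2 fold change of -0.14. That is 71.4% called, against 56.5% of all genes tested. No class was tested against that share. PSMA4, on chromosome 15 at 78832747 to 78841563, measured 195, 183 and 202 RPKM in shLuc and 157, 158 and 149 RPKM in shWDR5. Every shWDR5 library lay below every shLuc library. It fell by 0.32 on the log2 scale (SE 0.06, edgeR adjusted p = 0.000676), and by 0.216 with the GC offsets described below. PSMA7, on chromosome 20 at 60711783 to 60718514, went the other way, from 176, 159 and 159 RPKM in shLuc to 194, 195 and 181 RPKM in shWDR5. Its groups did not overlap either, and it rose by 0.21 (SE 0.06, edgeR adjusted p = 0.0126). The call for PSMA7 was lost without shLuc replicate 2, shLuc replicate 3 or shWDR5 replicate 2.

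PSMA2 fell by 0.29, PSMA3 by 0.27 and PSMA1 by 0.14 on the log2 scale. With GC offsets these were -0.17, -0.15 and -0.097, and none of them was called. PSMA5 (-0.05) and PSMA6 (0.12) were not called. PSMA8, the form of PSMA7 known from testis, had 0 counts in every library, which allows up to 0.052 to 0.0785 CPM (3 counts of each total, an upper limit that covers counting error only). The alpha subunits are assembled in equal numbers, and their log2 fold changes nevertheless spanned -0.32 to 0.21. With GC offsets the span was -0.22 to 0.20.

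In the beta rings, 1 of 8 tested genes fell and none rose in edgeR (12.5% called, against 56.5% of all genes). Only 1 gene had an unadjusted p under 0.05. DESeq2 called the same gene. The gene was PSMB6, which encodes the caspase-like cutting subunit, on chromosome 17 at 4699439 to 4701798. It measured 128, 117 and 114 RPKM in shLuc and 102, 94.05 and 93.1 RPKM in shWDR5, with no overlap. The fall was 0.31 on the log2 scale (SE 0.06, edgeR adjusted p = 0.00183).

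The other cutting subunits were not called. PSMB5, the chymotrypsin-like subunit and the main target of proteasome inhibitor drugs, lies on chromosome 14 at 23495060 to 23504429 and measured 86.3, 79.4 and 83.0 RPKM in shLuc and 81.1, 79.2 and 73.7 RPKM in shWDR5. Its groups overlapped, and the 95% interval of its log2 fold change ran from -0.22 to 0.04. PSMB7, the trypsin-like subunit, lies on chromosome 9 at 127115744 to 127177752 and measured 86.3, 78.5 and 88.2 RPKM against 78.3, 78.4 and 76.2 RPKM (interval -0.25 to 0.01). Its groups were set apart by a narrow gap, and 38.3% of its exon length is shared with LOC100129034 on the opposite strand. The kit as described in the labels is not stated to keep strand, so reads in the shared part cannot be told apart. PSMB7 was called lower with the replicate number as a block, with total-count scaling and without shLuc replicate 2.

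PSMB10 encodes the interferon-inducible form of the trypsin-like subunit and lies on chromosome 16 at 67968407 to 67970780. It measured 17.3, 15.9 and 17.0 RPKM in shLuc and 19.2, 18.7 and 17.4 RPKM in shWDR5, just clear of overlap, and its log2 fold change of 0.14 was not called (interval -0.02 to 0.30). The non-catalytic PSMB1 to PSMB4 had log2 fold changes from -0.05 to 0.02. PSMB11, known from thymus, had 0 counts in every library. The edgeR intervals of PSMB1 to PSMB5, PSMB7 and PSMB10 all lay between -0.25 and 0.30.

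**Figure D2:**
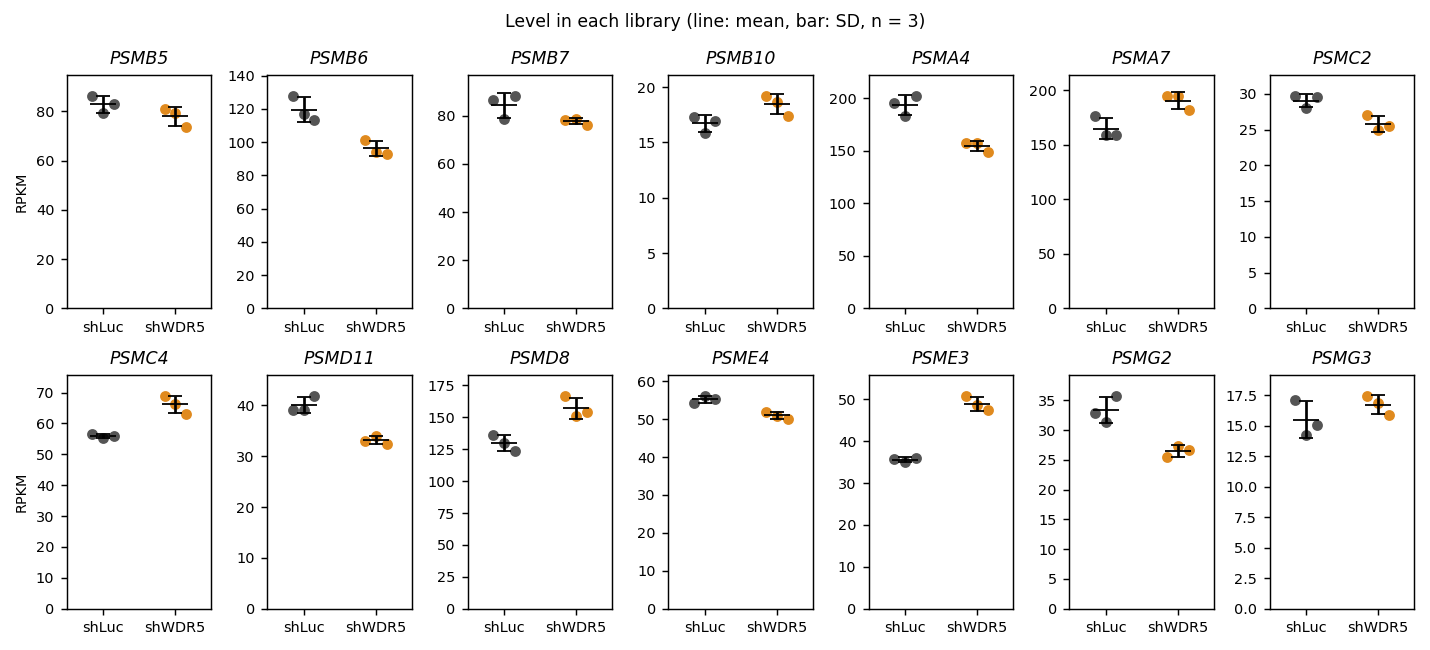
RPKM (y axis, from 0) of 14 proteasome genes in the 3 shLuc and 3 shWDR5 libraries; points are libraries, lines group means and bars SD. PSMB6, PSMA4, PSMD11 and PSMG2 sit lower and PSMA7, PSMC4, PSMD8 and PSME3 higher in every shWDR5 library, while PSMB5 and PSMG3 overlap.

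Of the 6 ATPases of the cap, 1 rose (16.7%, against 26.6% of all genes) and 2 fell (33.3%, against 29.9% of all genes). PSMC4, on chromosome 19 at 40476912 to 40487671, measured 56.5, 55.3 and 55.8 RPKM in shLuc and 68.8, 66.4 and 63.2 RPKM in shWDR5. All shWDR5 libraries were above all shLuc libraries, and the rise was 0.24 on the log2 scale (SE 0.05, edgeR adjusted p = 0.00289). PSMC2, on chromosome 7 at 102987971 to 103009842, measured 29.7, 28.0 and 29.5 RPKM against 27.0, 24.9 and 25.4 RPKM. It fell by 0.17 (SE 0.06, edgeR adjusted p = 0.0237), without overlap. PSMC1 fell by 0.15. The calls for PSMC1 and PSMC2 were lost with DESeq2's test. PSMC3 (-0.05), PSMC5 (0.11) and PSMC6 (-0.08) were not called.

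Among the 11 non-ATPase cap subunits, 3 rose and 4 fell (63.6% called, against 56.5% of all genes). PSMD8, a subunit of the lid, on chromosome 19 at 38865190 to 38874464, measured 136, 130 and 124 RPKM in shLuc and 167, 151 and 154 RPKM in shWDR5. It rose by 0.27 on the log2 scale (SE 0.06, edgeR adjusted p = 0.00279), and its groups did not overlap. PSMD13, also of the lid, rose by 0.25. PSMD2, a scaffold subunit that docks ubiquitin-carrying shuttle proteins, rose by 0.19, and its call was lost with total-count scaling and without shLuc replicate 2, shLuc replicate 3 or shWDR5 replicate 1.

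PSMD11, a lid subunit that clamps the cap to the core, lies on chromosome 17 at 30771481 to 30810337. It measured 39.0, 39.2 and 41.8 RPKM in shLuc and 33.0, 34.0 and 32.5 RPKM in shWDR5. With no overlap it fell by 0.27 on the log2 scale (SE 0.05, edgeR adjusted p = 0.00142). PSMD1, the other large scaffold beside PSMD2, fell by 0.25. The estimates of the pair of scaffolds thus had opposite signs, though the call for PSMD2 was lost under the settings named above. PSMD14, the enzyme that cuts ubiquitin off the substrate, fell by 0.16 and PSMD6 by 0.15, and both calls were lost with DESeq2's test. The RPKM of the groups overlapped for PSMD14. PSMD7, the partner of PSMD14, stood at -0.06, the ubiquitin receptor PSMD4 at -0.03, PSMD12 at -0.02 and PSMD3 at 0.05, none of them called. PSMD12 was called higher (0.113) with the replicate block and GC offsets together.

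Summed over subunits, the levels of the core and of the cap overlapped between groups. The 15 detected core genes summed to 1799, 1654 and 1742 RPKM in shLuc and to 1679, 1682 and 1565 RPKM in shWDR5. The 17 cap genes summed to 1239, 1166 and 1205 RPKM in shLuc and to 1277, 1226 and 1205 RPKM in shWDR5. All 46 genes together took 0.57% ± 0.0188 of counts in shLuc and 0.544% ± 0.0134 in shWDR5 (SD, n = 3). A sum is weighted to the genes of highest level and hides the opposite changes of its parts.

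The largest changes were among the regulators. PSME3, which forms a nuclear activator that opens the core without ubiquitin, lies on chromosome 17 at 40985159 to 40995777. It measured 35.8, 34.99 and 36.1 RPKM in shLuc and 50.8, 48.7 and 47.4 RPKM in shWDR5. The groups were well apart, and PSME3 rose by 0.46 on the log2 scale, or 1.38-fold (SE 0.05, edgeR adjusted p = 3.35e-05). PSMF1, known as an inhibitor of the core in vitro, on chromosome 20 at 1093906 to 1148426, measured 20.5, 20.04 and 19.5 RPKM against 27.3, 24.1 and 25.5 RPKM. It rose by 0.36, or 1.28-fold (SE 0.06, edgeR adjusted p = 0.000572), again without overlap.

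PSME1 and PSME2 form the interferon-inducible cytoplasmic activator. Neither was called, at -0.11 and 0.05 on the log2 scale, and their groups overlapped. PSME4, an activator linked to the degradation of acetylated histones, lies on chromosome 2 at 54091204 to 54197977 and measured 54.3, 56.1 and 55.3 RPKM in shLuc and 51.9, 50.9 and 50.05 RPKM in shWDR5. Its groups did not overlap, but its log2 fold change of -0.12 missed the threshold (edgeR adjusted p = 0.0601). With the replicate number as a block, or with total-count scaling, PSME4 and PSME1 were both called lower. Thus 2 of the 5 regulators rose and none fell in edgeR (40.0% called, against 56.5% of all genes). An unadjusted p under 0.05 was seen in 3 of the 5. DESeq2's test likewise called the same 2.

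Assembly chaperones either fell or were not called. PSMG1 and PSMG2, which work as a pair in building the alpha ring, both fell. PSMG2, on chromosome 18 at 12658738 to 12725739, measured 32.9, 31.4 and 35.7 RPKM in shLuc and 25.5, 27.4 and 26.6 RPKM in shWDR5. It fell by 0.33 on the log2 scale (SE 0.07, edgeR adjusted p = 0.00187), the lowest fold change of the 44 genes. PSMG1, on chromosome 21 at 40547372 to 40555440, measured 28.4, 30.4 and 30.5 RPKM against 21.7, 25.5 and 24.2 RPKM and fell by 0.32 (SE 0.07, edgeR adjusted p = 0.00372). Neither gene's groups overlapped.

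PSMG3 and PSMG4, the other pair that acts on the alpha ring, were not called. PSMG3, on chromosome 7 at 1606970 to 1609668, measured 17.1, 14.3 and 15.1 RPKM in shLuc and 17.4, 16.9 and 15.9 RPKM in shWDR5, with overlap and an interval from -0.07 to 0.29, and was called higher only without shLuc replicate 1 among the libraries left out. Whether the pairs differed in response was not tested. Of the chaperones that assemble the ATPase ring, PSMD10, also known as gankyrin, on chromosome X at 107327435 to 107334874, measured 16.4, 18.3 and 16.7 RPKM in shLuc and 12.6, 14.4 and 14.2 RPKM in shWDR5 and fell by 0.32 (SE 0.08, edgeR adjusted p = 0.00516). PSMD5 (0.06) and PSMD9 (-0.0072) were not called. In all, 3 of 7 assembly chaperones fell and none rose in edgeR (42.9% called, against 56.5% of all genes). An unadjusted p under 0.05 was seen in 3, and DESeq2 called the same 3.

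Outside the proteasome, PSMC3IP measured 3.06, 2.55 and 3.07 RPKM in shLuc and 2.15, 1.97 and 1.95 RPKM in shWDR5. It fell by 0.52 on the log2 scale (SE 0.10, edgeR adjusted p = 0.00146). Of its exon length, 39.1% is shared with MLX on the opposite strand, which had over 10 times its counts (14509 against 1334 over all libraries), so its level is uncertain.

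The levels of the subunits were set side by side per kilobase of exon. In shLuc the highest was PSMB4, the last beta subunit to enter the ring, at 260 ± 15.9 RPKM (SD, n = 3). It was followed by PSMA4 at 193 ± 9.93 RPKM and PSMB1 at 187 ± 13.5 RPKM, which did not differ beyond their SDs. The lowest core subunits were PSMB2 at 31.4 ± 0.196 RPKM and PSMA5 at 29.5 ± 1.64 RPKM, apart from PSMB10 at 16.7 ± 0.766 RPKM. PSMB2 and PSMA5 have the longest exon models of the core, 4845 and 3864 bases. ATPases were closer together, from PSMC2 at 29.1 ± 0.958 RPKM to PSMC1 at 87.4 ± 3.12 RPKM. Assembly chaperones ranked low, from PSMG4 at 9.61 ± 0.641 RPKM to PSMG2 at 33.3 ± 2.19 RPKM. Of the 43 steps between neighbours in this order, 34 were within the sum of the neighbours' SDs and 9 went beyond it.

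**Figure D3:**
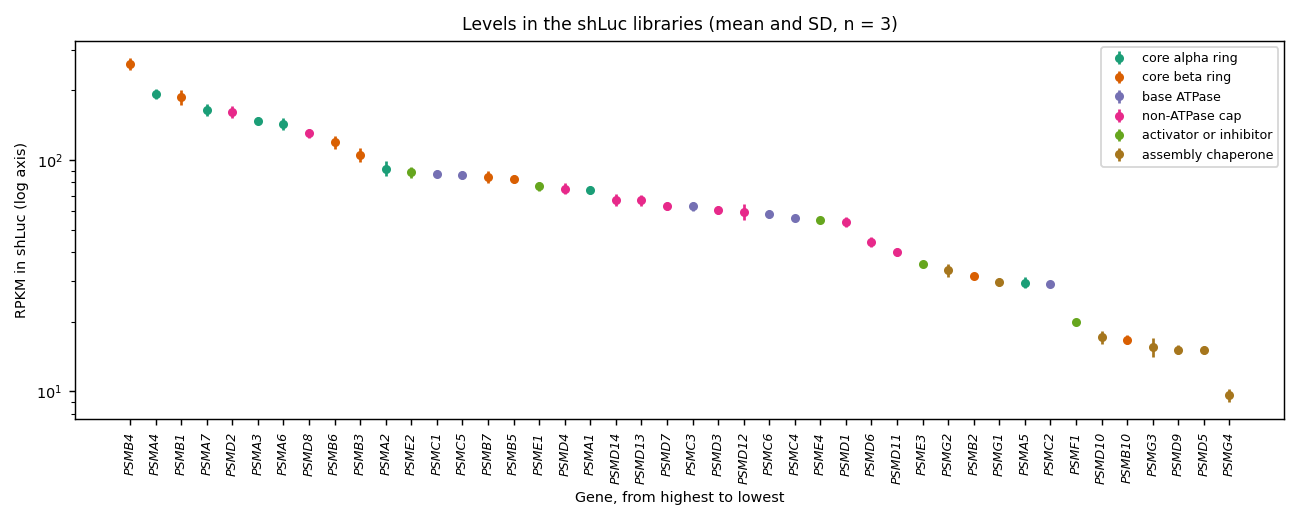
Level of each detected proteasome gene in shLuc (y axis, RPKM on a log scale; mean and SD, n = 3), from highest to lowest and coloured by class. Core genes lead from PSMB4 at 260 RPKM, and assembly chaperones lie at 33.3 RPKM or below.

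Among 42 genes that work with the proteasome, chosen by function, 16 rose and 11 fell, or 64.3% against 56.5% of all genes tested. Of 10 partner proteins, 1 rose and 3 fell (40.0% called). No list was tested against the share of all genes. ADRM1, a ubiquitin receptor of the cap, rose by 0.29 on the log2 scale (0.154 with GC offsets), while UCHL5, the deubiquitinase that ADRM1 holds, fell by 0.39. PAAF1, a chaperone of the ATPases, measured 7.99, 7.28 and 6.88 RPKM in shLuc and 5.44, 5.29 and 5.20 RPKM in shWDR5 and fell by 0.48. The small lid subunit SEM1 (listed as SHFM1) fell by 0.35. POMP, which assembles the beta rings, measured 70.4, 77.6 and 83.7 RPKM against 77.1, 83.2 and 87.6 RPKM, with overlap and a log2 fold change of 0.10 that was not called (edgeR adjusted p = 0.289). POMP was called higher with the replicate block (0.0991, adjusted p = 0.0419) and with GC offsets (0.263, adjusted p = 0.00667).

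Of the 7 genes that control proteasome gene transcription, 3 rose and 1 fell (57.1% called, against 56.5% of all genes). NFE2L1 measured 81.8, 80.5 and 80.2 RPKM in shLuc and 126, 116.5 and 121 RPKM in shWDR5. Its groups were far apart, and it rose by 0.58 on the log2 scale (SE 0.05, edgeR adjusted p = 5.96e-06). Its relative NFE2L2 rose by 0.22. MAFG, a small MAF protein that pairs with NFE2L1, rose by 0.45, and the related MAFF fell by 0.56. NGLY1 and DDI2, the enzymes that process NFE2L1 protein, stood at -0.11 and -0.19 and were not called, though both were called lower with total-count scaling. NFE2L1 is regulated mainly by processing and turnover of its protein, which mRNA does not measure.

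Ubiquitin genes rose or were not called: 4 of 6 rose (66.7% called, against 56.5% of all genes). RPS27A, which encodes ubiquitin fused to a ribosomal protein, rose by 0.47 on the log2 scale. The polyubiquitin gene UBB was at 0.04, not called. Ubiquitin repeats are near-identical between ubiquitin genes, so their counts may share reads. UBA1, the main ubiquitin-activating enzyme, rose by 0.26.

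Shuttle proteins carry tagged proteins to the cap. Of the 8 genes of this list, which also holds the segregase VCP and its cofactors, 7 were called: 4 higher and 3 lower. That is 87.5%, against 56.5% of all genes. RAD23B fell by 0.45 and UBQLN1 by 0.33 on the log2 scale. UBQLN2 went from 7.84, 8.98 and 7.61 RPKM in shLuc to 12.8, 13.2 and 14.2 RPKM in shWDR5 and rose by 0.72, the highest estimate of the 42 genes. The other rises were VCP (0.33), UBQLN4 (0.23) and UFD1 (0.16, listed as UFD1L). The call for UFD1 was lost with total-count scaling (0.106) and without any 1 library other than shLuc replicate 1.

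The interferon-inducible core subunits PSMB8 and PSMB9, left out by the rule, both fell. PSMB9, the inducible counterpart of PSMB6, measured 8.71, 7.60 and 7.21 RPKM in shLuc and 2.68, 2.48 and 2.02 RPKM in shWDR5, a fall of 1.71 on the log2 scale (SE 0.12, edgeR adjusted p = 1.57e-06). PSMB8, the counterpart of PSMB5, measured 19.3, 17.1 and 17.8 RPKM against 12.3, 13.4 and 11.8 RPKM and fell by 0.53 (SE 0.07, edgeR adjusted p = 0.000154). PSMB10, the third inducible subunit, did not pass the test. The 11 genes of this list split 4 up and 4 down (72.7% called, against 56.5% of all genes). TAPBP (0.62) and IRF1 (0.48), the interferon-responsive factor, rose. Of the peptide transporter subunits, TAP1 (0.28) rose and TAP2 (-0.37) fell. B2M (-0.04) was not called.

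**Figure D4:**
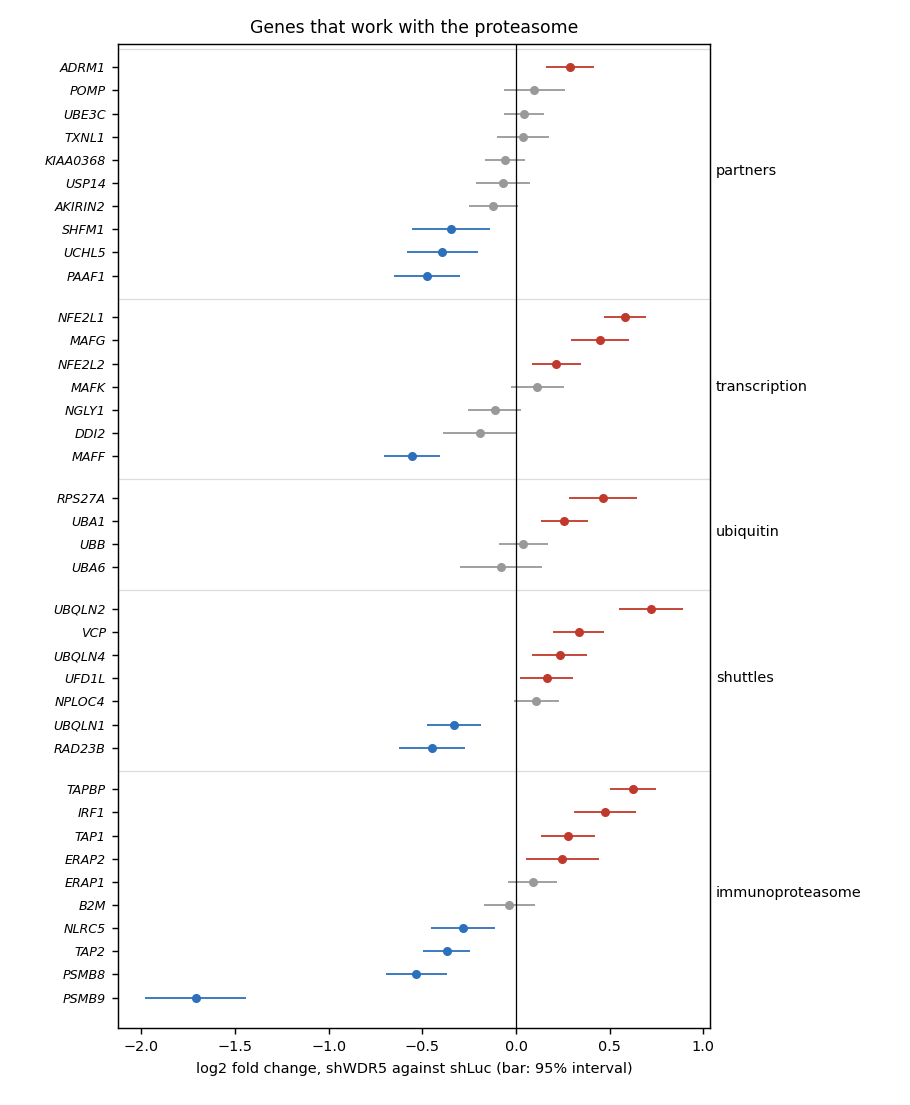
Log2 fold change between shWDR5 and shLuc (x axis) of 38 genes that work with the proteasome, by list; points are estimates and bars 95% intervals, red for higher, blue for lower and grey for not called. PSMB9 lies at -1.71, and NFE2L1 at 0.58.

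Fold change also moved with the base composition of transcripts. Over the 44 proteasome genes, log2 fold change and the GC content of their GENCODE 29 transcripts had Pearson's r of 0.49 and Spearman's rho of 0.51, a description across genes that share libraries and depth. Over the 14906 tested genes with a GC value, r was 0.12 and rho 0.15. The 14 genes that fell had a median GC of 45.1% (39.3 to 54.7%), the 7 that rose 51.5% (50.2 to 57.2%) and the 23 not called 51.8% (37.9 to 60.6%). Across deciles of GC content, the median log2 fold change of all genes went from -0.13 in the lowest to 0.15 in the highest.

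With library-specific GC offsets, added after these values were seen, 9 proteasome genes were called higher and 10 lower. Each offset was a curve, against GC, of a library's deviation from the mean of all libraries. The offsets therefore also take out any difference between the groups that follows GC, whatever its origin. Over all genes tested, 4817 were called higher and 5122 lower, beside 4291 and 4821 without the offsets. Of the 21 called proteasome genes 16 remained, and PSMA1, PSMA2, PSMA3, PSMC2 and PSMD6 were lost. PSMA6, PSMD5 (both higher) and PSME1 (lower) were gained. PSME3, PSMF1, PSMA4, PSMB6, PSMG1 and PSMG2 were among the 12 proteasome genes called under every setting tried. The matching share of all called genes was not counted.

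**Figure D5:**
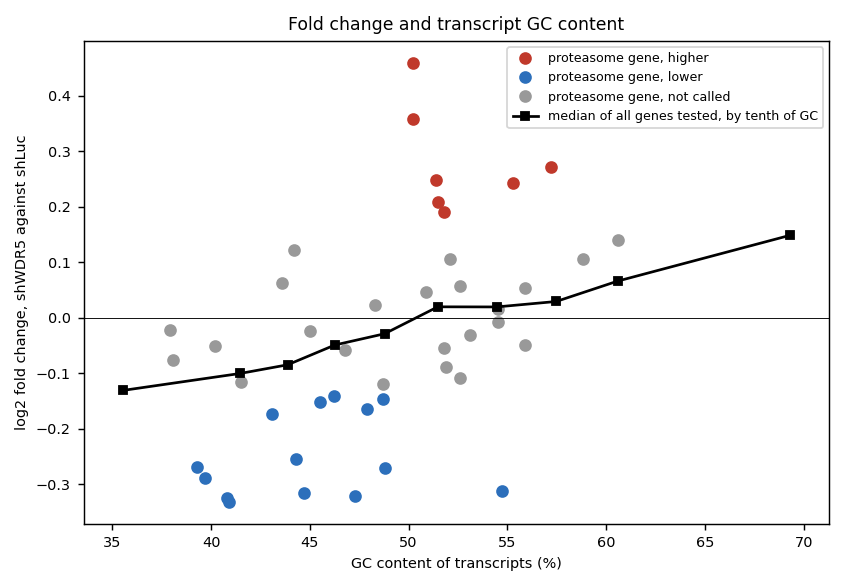
Log2 fold change between shWDR5 and shLuc (y axis) of 44 proteasome genes against the GC content of their transcripts (x axis, percent); coloured points are genes by call, and black squares are medians of all tested genes by decile of GC, placed at the middle of each decile's range. Proteasome genes below 50% GC include 13 of the 14 that fell and none that rose.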

How the data were processed

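RNA of 3 shLuc and 3 shWDR5 samples was sequenced by the authors from poly-A libraries. The deposited table holds read counts per gene with summed exon length. The submitters' processing notes name TopHat2 2.1.0, featureCounts and edgeR 3.2.2, with hg19 and GRCh37; how reads matching several genes were counted is not given in the sources used here. A second deposited file holds the authors' own comparison (log fold changes, p-values) and was not used.

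Counts were fitted with edgeR 4.0.16 in R 4.3.3 (filterByExpr, TMM, glmQLFTest, 16117 genes, no covariate), and p-values were adjusted over all genes tested. SE was the absolute log2 fold change divided by the square root of F. RPKM used TMM-scaled library sizes. Replicates of a group differed by more than sampling noise. The steps were tested on simulated data. Alternatives were DESeq2 1.42.0, other scalings and filters, a replicate block and leaving out each library. GC offsets were added after seeing the data.

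Genes given in full were WDR5, the cutting subunits, genes past a log2 fold change of 0.6 and the extremes of each class; PSMF1, PSMG1 and PSMD10 (with PSMC3IP and some partner genes) were given in full after their values were seen. Of partner genes, the 12 largest calls and POMP came from the rule (4 of the 42 partner genes enter the counts but are not reported here by name), and others named were chosen after their values were seen. Members and lists were chosen with earlier results of these data known.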

Additional observations from a re-analysis of the deposited data

How the results depend on the processing

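Over WDR5, the 44 proteasome genes, PSMC3IP and 42 partner genes, 1 reversed: PSMD12, not called at -0.02, was called higher (0.113) with the replicate block and GC offsets. The count of proteasome genes past a log2 fold change of 0.6 was 0 under every setting run. The count of falls was 14 (4821 over all genes), and 9 with upper-quartile factors or DESeq2's test (4390 and 4351 over all genes). Leaving out each library in turn gave 9 to 15 falls, 5 to 8 rises and a log2 fold change of WDR5 from -1.20 to -1.09. Over all genes, these fits gave 4271 to 4584 falls and 3803 to 4263 rises. With total counts only, class medians of the log2 fold change were -0.198 (alpha ring), -0.0969 (beta ring), -0.12 (ATPases), -0.0886 (non-ATPase cap), -0.065 (assembly chaperones), -0.011 (activators, 0.0464 with TMM) and -0.108 (all 44 genes), with all genes at -0.068. With GC offsets the ATPase median was -0.0093, and -0.0076 with the replicate block and GC offsets. Upper-quartile factors moved the median of the non-ATPase cap across 0, to 0.0055, and that of assembly chaperones to 0.0295, which was also above 0 with DESeq2's size factors (0.0098), DESeq2's test (0.0098) and the RPKM filter (0.0085). Leaving out libraries moved 3 medians across 0: assembly chaperones ranged from -0.0598 to 0.0355, the beta ring from -0.0712 to 0.0036 and the activators from -0.0058 to 0.0957. The cause was not tested.

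The labels do not say that replicate numbers pair libraries across groups, so the replicate block was an alternative only. Deviations from the group means had r = 0.372, 0.0358 and 0.116 between same-numbered libraries. Between unlike-numbered libraries of the 2 groups r ran from -0.312 to 0.21. Whether the numbers pair the libraries was not tested. With the replicate block, 8 proteasome genes rose and 17 fell: all 21 calls remained and PSMB7, PSMC5, PSME1 and PSME4 were gained. Over all genes tested, 4901 rose and 5511 fell with the block, beside 4291 and 4821 without it. With the replicate block and GC offsets, 10 proteasome genes rose and 12 fell, beside 5036 and 5330 of all genes tested. POMP was called higher with the replicate block (0.099) and with GC offsets (0.26). PSMA8 and PSMB11 had 0 counts and could not be compared at this depth.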
